A study of Mus musculus with 4 samples.

Results

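Cells make cholesterol from acetyl-CoA by a long chain of enzymes, and 8 genes that encode enzymes or a regulator of this chain are described here: Hmgcs1, Idi1, Fdps, Fdft1, Sqle, Cyp51, Msmo1 and Insig1. They were taken by name, and all 8 were found among the 33696 genes of the expression tables. The genes are targets of SREBP2, a transcription factor held in the endoplasmic reticulum membrane while sterols are plentiful. When membrane cholesterol is low, SREBP2 is carried to the Golgi apparatus and cut by proteases, and its free part enters the nucleus and raises transcription of the sterol synthesis enzymes. Dividing and activated lymphocytes draw on the same route for new membrane, and macrophages also take up cholesterol with the material that they engulf.

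The cells came from the peritoneal cavity of wild-type (WT) mice fed a high-fat diet (HFD) or chow (CD) for 3 months from an age of 4 weeks. They were washed out of the cavity, sorted for the leukocyte protein CD45 and profiled by droplet single-cell RNA sequencing of transcript 3' ends, with a matched library of B-cell receptors. For either diet there was 1 library of each kind. Strain, sex, the number of mice and any pooling are not given in the labels, whose protocol text puts both diets on high-fat food, so the diet was taken from the titles and the design text.

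The HFD library held 6684 kept barcodes of 6897 and the CD library 13069 of 13227, where a barcode stands for 1 droplet and so usually for 1 cell. The median depth of the kept barcodes was 6452 unique molecular identifiers (UMIs, each a counted transcript molecule) in HFD and 4464 in CD, and 30 barcodes occurred in both libraries. Barcodes without a receptor contig that had at least 5 UMIs over Adgre1, Prg4, Alox15 and Garnl3 were taken as macrophages, 1526 in HFD and 2243 in CD. Those with at least 2 UMIs over Cd3e, Cd3d and Cd3g were taken as T cells, 820 in HFD and 1117 in CD, and 49 HFD and 99 CD barcodes met both rules. Barcodes with a receptor contig were B cells, divided by Fcer2a and Cr2, which encode CD23 and CD21, surface proteins of conventional B cells. B cells with 0 UMIs of both genes numbered 2409 in HFD and 4884 in CD, and B cells with 2 or more numbered 768 in HFD and 1143 in CD. B cells with 1 UMI over both genes, 500 in HFD and 1085 in CD, were in neither class. Of the B cells with 0 UMIs, 203 in HFD and 599 in CD also met the macrophage or T-cell marker minimum. Of those with 2 or more, 22 in HFD and 56 in CD did. Markers outside the class rules were also read. Bhlhe41, a transcription factor of innate-like B-1 cells, stood at 50.9 and 33.7 counts per 1000000 UMIs of the class (CPM) in HFD and CD B cells without Fcer2a or Cr2, against 15.8 and 12.4 CPM in HFD and CD B cells with them. The class with 0 UMIs of Fcer2a and Cr2 also held Ighd, a gene of conventional B cells, at 135 CPM in HFD and 143 CPM in CD. Trac, a T-cell receptor gene, had 166 CPM in HFD and 93.8 CPM in CD T cells, against 1.66 CPM in HFD and 2.20 CPM in CD macrophages.

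Levels are given as CPM with exact 95% Poisson intervals, and the diets are compared by the log2 ratio of HFD over CD with an exact conditional 95% interval. With 1 library per diet there is no replicate check, no test of the diets is possible, and every interval covers counting error only. Variation from cell to cell, from mouse to mouse or from one preparation to the next lies outside them.

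Promoter sequence was matched in RefSeq (build GRCm38.p6, older than the mm39 build named for the counts) for 5 of the 8 genes: Hmgcs1, Insig1, Idi1, Cyp51 and Msmo1. The 250 bases before the start of 3 of them are shown 5′ to 3′ on the gene's strand, because Hmgcs1 had the largest diet difference, Idi1 shared its direction in B cells without Fcer2a or Cr2 and Cyp51 was among the genes with the widest gaps between cell classes. Capitals mark the sterol regulatory element searched as TCACNCCAC and the NF-Y box CCAAT, each on either strand.
Hmgcs1, chr13:119690101-119690350, plus strand: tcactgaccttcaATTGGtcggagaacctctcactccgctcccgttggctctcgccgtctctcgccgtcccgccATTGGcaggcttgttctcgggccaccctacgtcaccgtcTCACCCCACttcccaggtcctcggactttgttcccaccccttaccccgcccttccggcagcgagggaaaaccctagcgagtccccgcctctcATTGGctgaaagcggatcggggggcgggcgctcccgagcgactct
Idi1, chr13:8885356-8885605, plus strand: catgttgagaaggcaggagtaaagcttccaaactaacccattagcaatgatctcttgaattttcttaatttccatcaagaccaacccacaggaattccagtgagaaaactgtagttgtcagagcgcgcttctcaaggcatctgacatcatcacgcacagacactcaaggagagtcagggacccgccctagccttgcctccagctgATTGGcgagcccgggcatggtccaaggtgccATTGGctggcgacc
Cyp51, chr5:4104698-4104947, minus strand: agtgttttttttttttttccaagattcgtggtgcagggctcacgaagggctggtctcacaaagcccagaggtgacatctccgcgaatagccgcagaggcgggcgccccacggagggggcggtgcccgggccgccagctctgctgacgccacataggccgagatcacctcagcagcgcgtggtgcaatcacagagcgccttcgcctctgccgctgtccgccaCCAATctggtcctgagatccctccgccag

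Of the 5 promoters, 1 held TCACNCCAC: that of Hmgcs1, with TCACCCCAC from base -137 to base -129 before the start. The same letters occurred in 1.05% of 32851 mouse promoters cut to the same length. The box CCAAT was found in 5 of 5, against 33.8% of all promoters, and the GC box GGGCGG, also searched on both strands, in 5 of 5, against 32.7%. Hmgcs1 and Msmo1 each held 3 CCAAT boxes, Idi1 held 2 and Insig1 and Cyp51 1 each. A match describes the letters in this window and says nothing of binding in these cells.

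B cells without Fcer2a or Cr2 had less RNA of these genes in HFD than in CD. Summed over the 8 genes, the level was 79.5 CPM (75.5 to 83.6) in HFD and 101 CPM (97.3 to 105) in CD, a log2 ratio of -0.35 (-0.44 to -0.25). Each of the 8 genes had a ratio below 0, as did 52.4% of the 11818 genes that had at least 50 UMIs over both libraries of this class, and none was above 0, against 47.6%. The 8 genes were chosen with earlier results of these data known, so the count is a description only. The median ratio of the 8 was -0.32, while that of all genes was -0.01. By size, 1 of the 8 was 1.5-fold or more lower in HFD, against 6.03% of all genes, and none was 1.5-fold or more higher, against 5.14%. With barcodes that also met the macrophage or T-cell minimum left out, 7 of the 8 were below 0, with a median of -0.22. Since RNA was summed over a class, fewer cells that express a gene and less RNA per cell cannot be told apart in these values. Macrophage RNA amounted to 4.86% of a macrophage profile in HFD and 7.35% in CD, and with the profiles of the other classes subtracted the summed level was 78.0 CPM in HFD and 101 CPM in CD. The make-up of the class also differed between the diets. The 6 check genes of B-1 cells (Bhlhe41, Zbtb32, Spn, Cd5, Plscr1 and Ctla4) summed to 454 CPM in HFD and 327 CPM in CD, with 6 of 6 higher in HFD, against 47.6% of all genes.

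Hmgcs1 encodes the cytosolic HMG-CoA synthase, which joins acetyl-CoA to acetoacetyl-CoA early in the route. In B cells without Fcer2a or Cr2 it had 142 UMIs in HFD and 398 in CD, or 7.60 CPM (6.40 to 8.96) in HFD and 14.6 CPM (13.2 to 16.1) in CD. The log2 ratio was -0.94 (-1.23 to -0.66), which makes CD 1.92-fold higher. Idi1, which interconverts the 5-carbon isoprenoid units, had 6.91 CPM (5.77 to 8.21) in HFD and 8.98 CPM (7.89 to 10.2) in CD, a ratio of -0.38 (-0.70 to -0.07). Fdps, which joins these units to farnesyl diphosphate, the branch point to sterols and to prenylated proteins, had 19.8 CPM (17.8 to 21.9) in HFD and 26.7 CPM (24.8 to 28.7) in CD. Its ratio was -0.43 (-0.61 to -0.25). The 3 mevalonate-side genes among the 8 were therefore each lower in HFD by more than counting error.

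Fdft1, the squalene synthase that commits farnesyl diphosphate to sterols, had 10.5 CPM (9.08 to 12.1) in HFD and 12.6 CPM (11.3 to 14.0) in CD in the same B cells, a ratio of -0.27 (-0.53 to -0.0083). The gene overlaps Ctsb in the annotation, and the strand setting of the counting is not given in the sources used here, so reads of this pair cannot be told apart with certainty. Sqle, the squalene epoxidase, was sparse, with 45 UMIs in HFD and 92 in CD and a ratio of -0.49 (-1.03 to 0.04). The later enzymes Cyp51 and Msmo1, which remove methyl groups from lanosterol and its products, had ratios of -0.15 (-0.35 to 0.05) and -0.06 (-0.35 to 0.23). Insig1, the membrane protein that holds SREBP2 back when sterols are high, had 5.30 CPM (4.31 to 6.45) in HFD and 5.46 CPM (4.62 to 6.42) in CD, a ratio of -0.04 (-0.43 to 0.33). The intervals of Sqle, Cyp51, Msmo1 and Insig1 include 0.

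**Figure D1:**
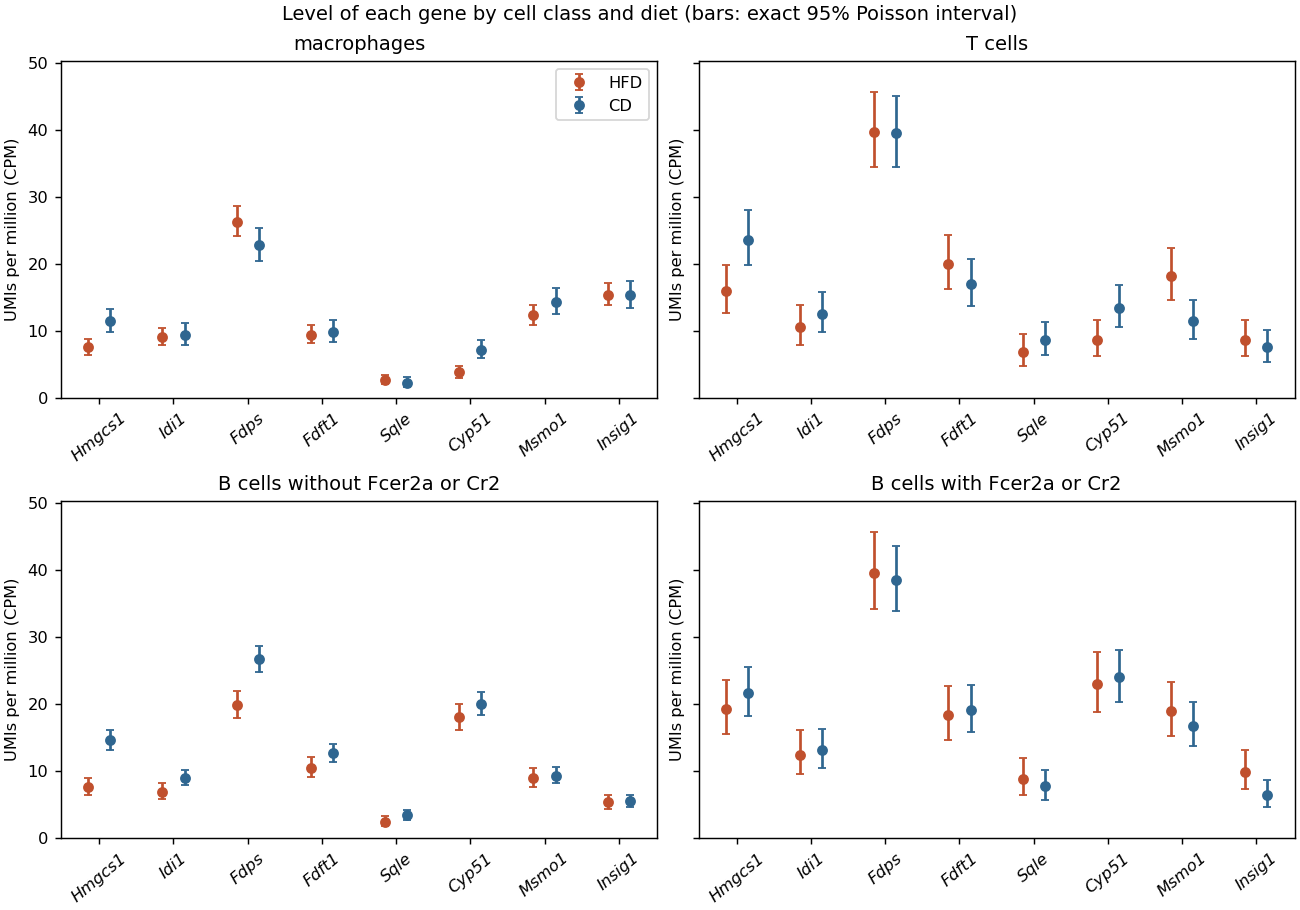
Level of each of the 8 genes in CPM (y axis) in the 4 cell classes, 1 panel each, with HFD left of CD and exact 95% Poisson intervals as bars, 1 library per diet. Hmgcs1 stands lower in HFD in each panel, with 7.60 CPM in HFD and 14.6 CPM in CD in B cells without Fcer2a or Cr2 and the smallest gap in B cells with them.

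Narrower sets of B cells gave the same direction for the sum and for Hmgcs1. Barcodes with a heavy chain of IGHV11-2 or IGHV12-3, the V genes of the phosphatidylcholine-binding receptors of B-1 cells, numbered 721 in HFD and 772 in CD, and 679 HFD and 730 CD barcodes of them lay within the class without Fcer2a or Cr2, 28.2% of it in HFD and 14.9% in CD. Their summed level was 64.4 CPM (58.5 to 70.7) in HFD and 84.1 CPM (76.5 to 92.3) in CD, a ratio of -0.39 (-0.58 to -0.19). Hmgcs1 had 5.75 CPM (4.09 to 7.85) in HFD and 9.81 CPM (7.32 to 12.9) in CD there, a ratio of -0.77 (-1.41 to -0.14). Fdps had a ratio of -0.51 (-0.90 to -0.12) in the same barcodes. In the class without these barcodes the summed level was 87.1 CPM (82.0 to 92.5) in HFD and 105 CPM (101 to 109) in CD, a ratio of -0.27 (-0.37 to -0.16), with Hmgcs1 at -0.86 (-1.19 to -0.54) and 6 of the 8 genes below 0. Without barcodes that carried Ighd, the summed ratio was -0.35 (-0.48 to -0.21) and that of Hmgcs1 -0.88 (-1.33 to -0.45), with 7 of the 8 genes below 0 and Insig1 at 0.01. These barcodes come from the same 2 libraries and are not a replicate of the comparison.

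Depth differed between the diets, with a median of 6576 UMIs per barcode in HFD and 4552 in CD in B cells without Fcer2a or Cr2. The summed level was lower in HFD in each of 4 depth ranges. Below 3000 UMIs it was 84.2 CPM (59.3 to 116) in HFD and 101 CPM (89.1 to 113) in CD, where the intervals overlap. In barcodes of 5000 to 10000 UMIs the summed ratio was -0.19 and that of Hmgcs1 -0.64. From 12000 UMIs up the summed level was 78.1 CPM (71.1 to 85.7) in HFD and 115 CPM (105 to 126) in CD. For Hmgcs1 the ratios from the shallowest range to the deepest were -0.65, -1.04, -0.81 and -1.12, and the interval of the first, on 4 HFD UMIs, includes 0. After each barcode was thinned to 3000 UMIs, Hmgcs1 was found in 2.35% (1.76 to 3.07, Clopper-Pearson) of 2216 HFD barcodes and in 4.15% (3.53 to 4.84) of 3760 CD barcodes. Before thinning it was found in 5.48% of HFD and 6.84% of CD barcodes, and no class in these data lacks the gene, so no background share can be set beside these. With thinned counts 5 of the 8 genes, not 8, had ratios below 0, and Fdft1 came to 0.022.

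**Figure D2:**
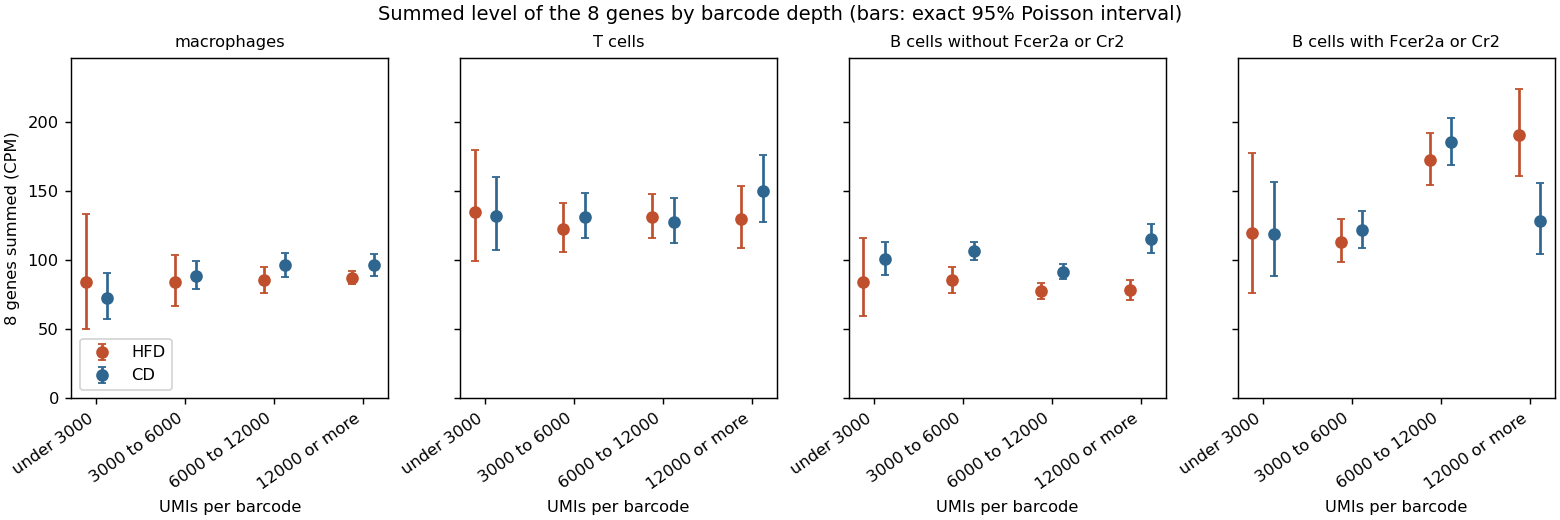
Summed level of the 8 genes in CPM (y axis) by UMIs per barcode (x axis, 4 ranges) in each cell class, with HFD left of CD and exact 95% Poisson intervals. In B cells without Fcer2a or Cr2 the HFD point lies below the CD point in all 4 ranges, while in B cells with them the intervals of the diets are apart only from 12000 UMIs up, where HFD is higher. That range of B cells with Fcer2a or Cr2 held only 47 HFD and 49 CD barcodes.

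B cells with Fcer2a or Cr2 had nearly the same summed level in both diets, 150 CPM (140 to 162) in HFD and 147 CPM (138 to 157) in CD, a ratio of 0.03 (-0.11 to 0.17). The genes divided evenly, 4 of 8 below 0, against 42.5% of the 9453 genes measured in this class, and 4 above, against 57.5%. Hmgcs1 had 19.2 CPM (15.5 to 23.6) in HFD and 21.6 CPM (18.2 to 25.6) in CD, a ratio of -0.17 (-0.57 to 0.22). Insig1 had 9.91 CPM (7.28 to 13.2) in HFD and 6.43 CPM (4.61 to 8.72) in CD, a ratio of 0.63 (-0.0099 to 1.27). It was the 1 gene of the 8 that was 1.5-fold or more higher, against 4.54% of all genes, and its interval includes 0. None was 1.5-fold or more lower, against 2.82%. The other 6 genes had ratios from -0.08 to 0.21 with intervals that include 0. The difference in ratio between the B-cell classes, without Fcer2a or Cr2 minus with, was -0.38 (-0.54 to -0.21) for the sum and -0.77 (-1.24 to -0.30) for Hmgcs1. B cells with 1 UMI of Fcer2a or Cr2, in neither class, had a sum of 123 CPM (111 to 136) in HFD and 120 CPM (111 to 129) in CD. Their summed ratio was 0.03 (-0.15 to 0.22), and that of Hmgcs1 was -0.14 (-0.71 to 0.41).

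The even sum in B cells with Fcer2a or Cr2 held 2 unlike groups of barcodes. Cycling barcodes, those with 2 or more UMIs over 12 cell cycle genes, had a summed level of 221 CPM in HFD and 167 CPM in CD. Other barcodes had 119 CPM in HFD and 141 CPM in CD. Cycling over other barcodes, the log2 ratio was 0.89 (0.67 to 1.11) in HFD and 0.24 (0.03 to 0.45) in CD. In HFD, 1 barcode of this class held 32 of its 713 UMIs of the 8 genes. Without the cycling barcodes, the HFD over CD ratio of the sum was -0.24. The cycling barcodes were 23.6% of this class in HFD and 18.7% in CD, and they were deeper, with median depths of 6495 UMIs in HFD and 6453 in CD. A fixed minimum of 2 UMIs takes in more barcodes of a deeper library. After thinning to 3000 UMIs the share was 8.77% (6.76 to 11.1, Clopper-Pearson) in HFD and 8.36% (6.69 to 10.3) in CD, and the 12 cell cycle genes summed to 198 CPM in HFD and 209 CPM in CD. The part of depth in their higher level was not tested.

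In macrophages the sum was 86.6 CPM (82.7 to 90.7) in HFD and 92.7 CPM (87.9 to 97.7) in CD, a ratio of -0.10 (-0.20 to 0.0037). Of the 8 genes, 5 were below 0, against 56.6% of 11415 genes, and 3 above, against 43.4%. Those 1.5-fold or more lower were 2 of 8, Hmgcs1 and Cyp51, against 10.6% of all genes, and none was 1.5-fold or more higher, against 6.04%. Median depth was 12275 UMIs in HFD and 4966 in CD, the widest gap of the 4 classes.

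Hmgcs1 had 159 UMIs in HFD macrophages and 172 in CD macrophages, or 7.55 CPM (6.42 to 8.82) in HFD and 11.5 CPM (9.83 to 13.3) in CD, a ratio of -0.61 (-0.93 to -0.29). In barcodes of 5000 to 10000 UMIs, a narrower depth range, its ratio was -0.19. Fdps had 26.3 CPM (24.2 to 28.6) in HFD and 22.8 CPM (20.4 to 25.3) in CD, a ratio of 0.21 (0.01 to 0.41), but -0.44 in barcodes of 5000 to 10000 UMIs. Its direction in macrophages therefore depends on which depths are compared. Idi1, Fdft1, Sqle, Msmo1 and Insig1 had ratios from -0.22 to 0.23 with intervals that include 0. Insig1 was nearly level, at 15.4 CPM (13.8 to 17.2) in HFD and 15.3 CPM (13.4 to 17.4) in CD.

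Cyp51, the lanosterol demethylase, had 3.80 CPM (3.01 to 4.73) in HFD macrophages and 7.21 CPM (5.92 to 8.71) in CD macrophages, a ratio of -0.93 (-1.36 to -0.49). B-cell RNA in macrophages was also lower in HFD. The 7 B-cell check genes (Cd79a, Cd79b, Ms4a1, Ighm, Pax5, Ebf1 and Blk) summed to 280.4 CPM in HFD macrophages and 1248 CPM in CD macrophages, with none at 0 and 0 of 7 higher in HFD. That amounts to 2.73% of a B-cell profile in HFD and 12.8% in CD, and Cyp51 is a gene with more RNA in B cells, at 23.0 CPM in HFD and 24.0 CPM in CD B cells with Fcer2a or Cr2. In macrophages with fewer than 5 UMIs of these B-cell genes, Cyp51 had 3.40 CPM (2.63 to 4.33) in HFD and 5.25 CPM (3.97 to 6.80) in CD, a ratio of -0.63 (-1.16 to -0.09). Hmgcs1 in the same barcodes had 7.16 CPM (6.02 to 8.46) in HFD and 10.6 CPM (8.74 to 12.7) in CD, a ratio of -0.56 (-0.93 to -0.19). Both genes remained lower in HFD in these barcodes, Cyp51 by less. Fdps there had a ratio of 0.10 (-0.12 to 0.33). A fixed cut of 5 UMIs does not act alike at the unlike depths of the diets. What part B-cell RNA had in these ratios was not tested.

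T cells had a summed level of 128 CPM (119 to 139) in HFD and 134 CPM (124 to 144) in CD, a ratio of -0.06 (-0.21 to 0.10), and of -0.23 where barcodes with a receptor contig were allowed in. The genes were 4 below 0 of 8, against 54.4% of 9891 genes, and 4 above, against 45.6%. By size, 1 of 8 was 1.5-fold or more lower, against 8.52% of all genes, and 1 was 1.5-fold or more higher, against 4.59%. Hmgcs1 had 16.0 CPM (12.7 to 19.9) in HFD and 23.6 CPM (19.8 to 28.0) in CD, a ratio of -0.56 (-0.98 to -0.15). Msmo1, a methylsterol oxidase, had 18.2 CPM (14.6 to 22.3) in HFD and 11.5 CPM (8.83 to 14.6) in CD, a ratio of 0.67 (0.19 to 1.15), the opposite direction to Hmgcs1. With thinned counts the Msmo1 ratio was 0.29.

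Cyp51 in T cells had 8.59 CPM (6.22 to 11.6) in HFD and 13.4 CPM (10.6 to 16.8) in CD, a ratio of -0.64 (-1.22 to -0.08). The B-cell check genes summed to 931 CPM in HFD T cells and 2721 CPM in CD T cells, with none at 0 and 0 of 7 higher in HFD, or 9.08% and 27.8% of a B-cell profile in HFD and CD. Macrophage RNA in T cells amounted to 10.1% of a macrophage profile in HFD and 11.2% in CD. Without the barcodes that had 5 or more UMIs of the B-cell check genes, 19.5% of HFD and 36.8% of CD T cells, Cyp51 had 9.15 CPM (6.34 to 12.8) in HFD and 8.44 CPM (5.46 to 12.5) in CD, a ratio of 0.12 (-0.67 to 0.92). In the barcodes left out it had 6.98 CPM (3.19 to 13.3) in HFD and 19.1 CPM (14.2 to 25.1) in CD. The interval of the ratio of 0.12 also holds the -0.64 of all T cells, and what part B-cell RNA had in the ratio was not tested. With the profiles of the other classes subtracted, Cyp51 had 7.99 CPM in HFD and 11.1 CPM in CD T cells, a ratio of -0.48. Hmgcs1 and Msmo1 kept their directions in the barcodes with fewer than 5 such UMIs, at -0.54 (-1.04 to -0.03) and 0.79 (0.15 to 1.45).

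**Figure D3:**
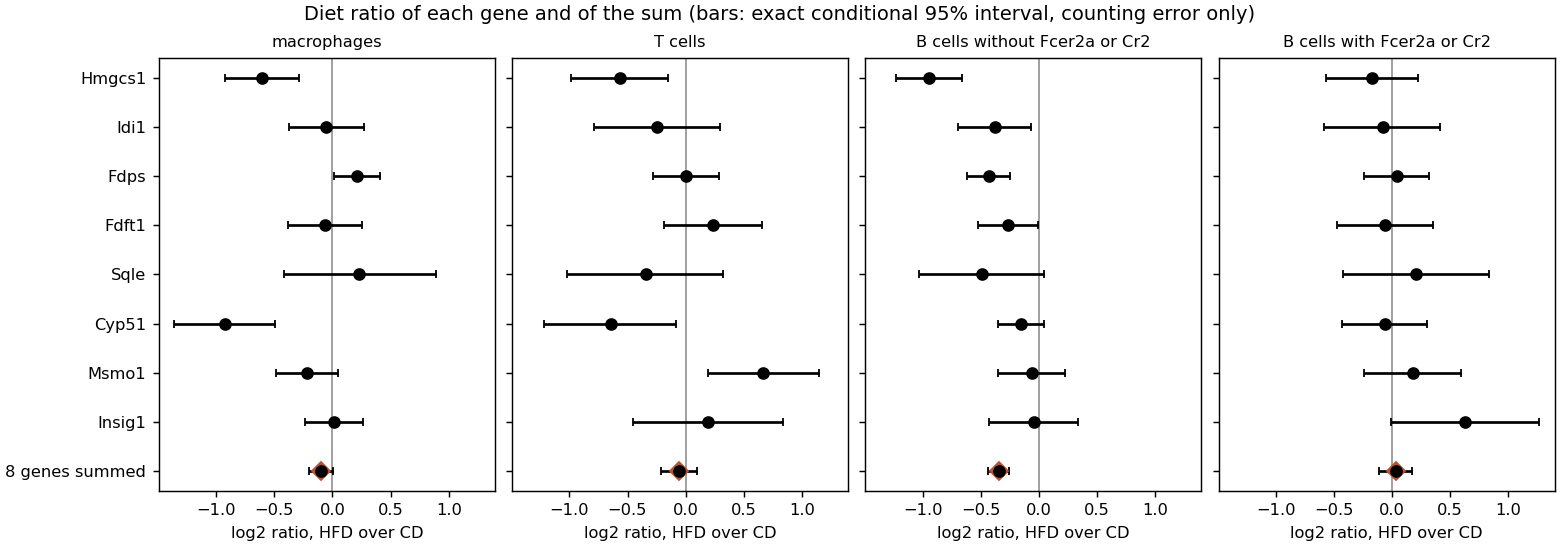
Log2 ratio of HFD over CD (x axis) of each gene and of the sum (diamond) in the 4 cell classes, with exact conditional 95% intervals that cover counting error only. The interval of Hmgcs1 lies below 0 in macrophages, T cells and B cells without Fcer2a or Cr2, and the sum lies clear of 0 in B cells without them.

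Hmgcs1 was the 1 gene of the 8 whose ratio was below 0 in each of the 4 classes under each processing setting tried. It ranged from -0.72 to -0.19 over 13 other settings in macrophages, from -0.75 to -0.41 over 13 in T cells, from -0.97 to -0.64 over 15 in B cells without Fcer2a or Cr2 and from -0.57 to -0.07 over 12 in B cells with them. Among these, allowing barcodes with a receptor contig into the macrophage and T-cell classes could not change either B-cell class. Higher marker minimums could not change the class with 0 UMIs of Fcer2a and Cr2. Over all kept barcodes Hmgcs1 had 10.3 CPM (9.47 to 11.1) in HFD and 16.4 CPM (15.5 to 17.4) in CD, a ratio of -0.68 (-0.82 to -0.53). Macrophages were 22.8% of kept barcodes in HFD and 17.2% in CD, so this pooled ratio also takes in class make-up. The barcodes in no class and without a contig, 710 in HFD and 2696 in CD, had 15.9 CPM (12.7 to 19.7) of Hmgcs1 in HFD and 20.9 CPM (18.6 to 23.4) in CD. The sum of the 8 genes there was 139.9 CPM (130 to 150) in HFD and 139.5 CPM (133 to 146) in CD, a ratio of 0.0046 (-0.12 to 0.13). Single depth ranges were not among these settings. In them Hmgcs1 was above 0 in B cells with Fcer2a or Cr2 below 3000 UMIs, at 0.87 (-0.98 to 2.67), and from 12000 UMIs up, at 0.66 (-0.34 to 1.70), and in macrophages below 3000 UMIs, at 0.15 (-3.10 to 2.42), with intervals that include 0. The settings share the same 2 libraries and do not stand in for replicates.

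**Figure D4:**
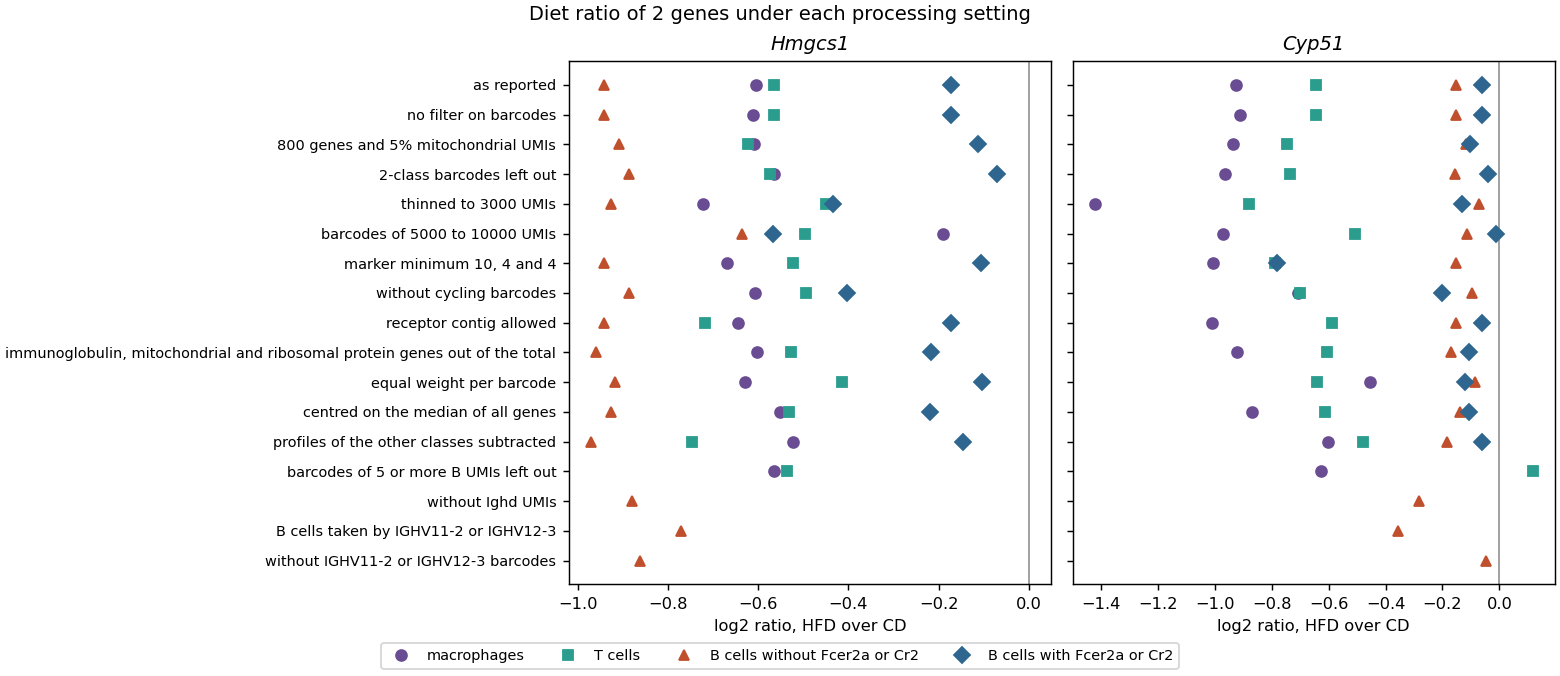
Log2 ratio of HFD over CD (x axis) of Hmgcs1 and Cyp51 under each processing setting (rows), with 1 symbol per cell class. Hmgcs1 lies left of 0 throughout, and Cyp51 in T cells comes to 0.12 where barcodes of 5 or more B-cell UMIs are left out.

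Between classes within a diet, the B cells with Fcer2a or Cr2 stood above those without for each of the 8 genes in both libraries. The summed level was 1.89-fold higher in HFD (log2 0.92, 0.79 to 1.05) and 1.46-fold higher in CD (log2 0.54, 0.44 to 0.65). Sqle differed most, at 8.86 CPM in HFD and 7.68 CPM in CD B cells with Fcer2a or Cr2, against 2.41 CPM in HFD and 3.37 CPM in CD B cells without them. The CD intervals of Cyp51 and Insig1 include no difference. T cells also exceeded B cells without Fcer2a or Cr2 for the sum, by a log2 ratio of 0.69 (0.56 to 0.83) in HFD and 0.40 (0.29 to 0.52) in CD.

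Cyp51 departed from this order, and Insig1 stood out by its level in macrophages. Cyp51 was highest in B cells with Fcer2a or Cr2, at 23.0 CPM in HFD and 24.0 CPM in CD, then in B cells without, then in T cells, and lowest in macrophages. Macrophages lay below B cells without Fcer2a or Cr2 by a log2 ratio of -2.24 (-2.61 to -1.89) in HFD and -1.47 (-1.78 to -1.17) in CD. Insig1 was highest in macrophages in both diets, above B cells without Fcer2a or Cr2 by 1.54 (1.21 to 1.88) in HFD and 1.48 (1.18 to 1.79) in CD. For Fdps, T cells and B cells with Fcer2a or Cr2 did not differ by more than counting error, at 39.8 CPM and 39.7 CPM in HFD. Over the 8 sums of 4 classes by 2 diets, the log2 levels of Sqle and Fdps followed the most alike pattern of any pair (Pearson's r = 0.96), while Insig1 and Cyp51 ran opposite (r = -0.78). These 8 sums share 2 libraries, and the correlations are descriptions. The genes outside the set whose log2 levels were most like the mean of the 8, among 5533 searched, were Tsn (r = 0.98), Polr2h (0.96), 1110004F10Rik (0.95), Lats2 (0.95) and Armc1 (0.95).

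The other enzymes of the route were divided in B cells without Fcer2a or Cr2. Of 14 measured there, 9 were below 0, against 52.4% of all genes, and 5 above, with a median of -0.07. Acat2, an acetoacetyl-CoA thiolase that acts just before Hmgcs1, had 4.07 CPM in HFD and 6.82 CPM in CD, a ratio of -0.75 (-1.15 to -0.35). Mvk, the mevalonate kinase, had a ratio of 0.25 (-0.14 to 0.63) in the same cells and from 0.43 to 0.49 in the other classes. Its interval leaves out 0 only in macrophages, at 0.47 (0.07 to 0.88). Sc5d, a late desaturase, had a ratio of -0.31 (-0.59 to -0.04), and Tm7sf2, a sterol reductase whose gene overlaps Vps51, had 0.71 (0.22 to 1.20). In macrophages 9 of 14 were below 0, against 56.6% of all genes, and Mvd, which forms isopentenyl diphosphate, was higher at 24.2 CPM in HFD and 16.1 CPM in CD, a ratio of 0.59 (0.37 to 0.82). In T cells 7 of 12 were below 0, against 54.4%, and in B cells with Fcer2a or Cr2 7 of 12, against 42.5%.

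**Figure D5:**
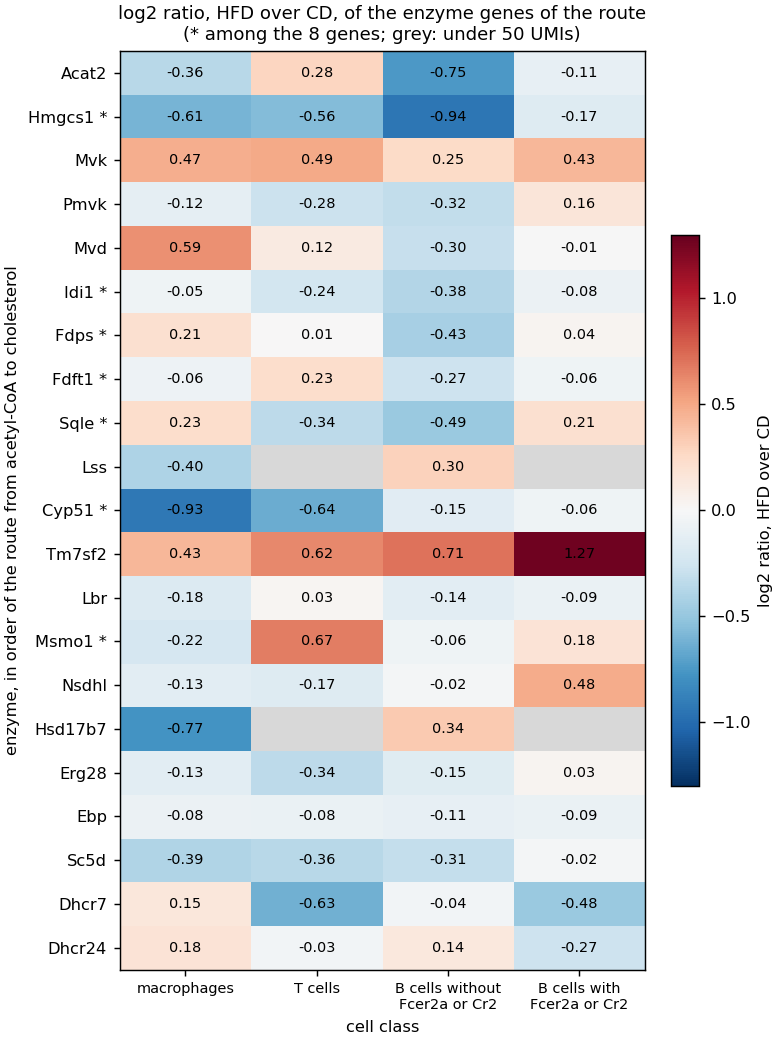
Log2 ratio of HFD over CD (colour and printed value) of 21 enzyme genes of the cholesterol route, listed from the first step down, in the 4 cell classes, with the 7 enzymes among the 8 genes starred and squares under 50 UMIs in grey. Hmgcs1 is blue in each column, while Mvk lies between 0.25 and 0.49, with an interval that leaves out 0 only in macrophages.

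Of 4 other SREBP2 targets measured in B cells without Fcer2a or Cr2, 1 was below 0, against 52.4% of all genes, and 3 above. Npc2, a lysosomal cholesterol carrier, had 206 CPM in HFD and 234 CPM in CD there, a ratio of -0.18 (-0.24 to -0.13). In B cells with Fcer2a or Cr2, 3 of 4 were below 0, against 42.5% of all genes, with Npc2 at -0.17 (-0.31 to -0.02). Srebf2, the gene of SREBP2 itself, had 23.3 CPM in HFD macrophages and 31.2 CPM in CD macrophages, a ratio of -0.42 (-0.61 to -0.23). B cells held more of it, from 68.4 CPM in CD B cells without Fcer2a or Cr2 to 105 CPM in HFD B cells with them, and B-cell RNA in macrophages was lower in HFD. In macrophages with fewer than 5 B-cell UMIs the Srebf2 ratio was -0.20 (-0.42 to 0.02), and with the profiles of the other classes subtracted it was -0.16. What part B-cell RNA had in the Srebf2 ratio was not tested. Of the 8 genes that carry, hold or cut SREBP, 6 were below 0 in macrophages, against 56.6% of all genes, with Scap, the escort protein, at -0.67 (-0.96 to -0.38) and Rnf145, a ubiquitin ligase, at -0.60 (-0.80 to -0.39). In macrophages with fewer than 5 B-cell UMIs Scap was at -0.60 (-0.93 to -0.27) and Rnf145 at -0.58 (-0.81 to -0.34). In B cells without Fcer2a or Cr2, 3 of these 8 were below 0, against 52.4% of all genes, with a median of 0.03.

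The SREBP1 and fatty acid list had 9 of 11 genes below 0 in B cells without Fcer2a or Cr2, against 52.4% of all genes, with a median of -0.24. The largest ratio of the list ran the other way: Acacb, an acetyl-CoA carboxylase of mitochondria, had 52 UMIs in HFD and 30 in CD, a ratio of 1.34 (0.66 to 2.04). Acaca, the acetyl-CoA carboxylase of fatty acid synthesis, had a ratio of -0.41 (-0.63 to -0.20) there and of 0.62 (0.16 to 1.09) in B cells with Fcer2a or Cr2. Scd1, the stearoyl-CoA desaturase, had 3.28 CPM in HFD macrophages and 19.1 CPM in CD macrophages. In macrophages with fewer than 5 B-cell UMIs it had 1.08 CPM in HFD and 3.13 CPM in CD, a ratio of -1.53 (-2.39 to -0.71) on 21 and 34 UMIs. B cells held from 111 CPM to 151 CPM of Scd1, and with the profiles of the other classes subtracted macrophages came to -0.14 CPM in HFD and 0.93 CPM in CD. What part B-cell RNA had in the Scd1 ratio was not tested. A further list held the genes of the sterol receptor LXR (Nr1h2 and Nr1h3), LXR targets and genes of cholesterol handling. Of these, 7 of 8 were below 0 in macrophages, against 56.6% of all genes. The intervals of Nr1h2, Nr1h3 and Abcg1 include 0, with Nr1h2 at -0.0044. The exception was Lpcat3, a phospholipid acyltransferase, with 57.5 CPM in HFD and 35.4 CPM in CD, a ratio of 0.70 (0.55 to 0.85). Apoe, a lipid carrier, had 3488 CPM in HFD macrophages and 14863 CPM in CD macrophages, a ratio of -2.09 (-2.10 to -2.08).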

How the data were processed

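The deposited expression files hold counts of UMIs for each gene in each barcode, unnormalized, written by Cell Ranger 8.0.1 per the file headers. Per the submitters' processing notes the tools were Cell Ranger 6.0.1 and Seurat 4.3.0 and the build mm39, so the version differs between header and notes. Cell calling settings and strand use are not given in the sources used here. Of the deposited receptor tables, the presence of a barcode and the heavy V gene were used.

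Barcodes needed 300 genes or more and no more than 10% of their UMIs from mitochondrial genes. UMIs were summed over the barcodes of a class and divided by all UMIs of the class. A gene needed 50 UMIs over both libraries of a class to be counted in a list. Ratios carry exact conditional Poisson intervals (Python 3.11.15, scipy 1.17.1), tested on simulated data. No doublet caller was run, and barcodes that met the rules of 2 classes were left out as an alternative. Shares of a B-cell profile are the summed check genes over their level in B cells, and the classes behind them were settled after the data were seen.

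The 8 genes and all lists were chosen with earlier results of these data known. Named are all 8 genes, examples from up to 4 genes of largest ratio per other list and class, and the 5 genes most like the set in level. Some genes of these lists are not reported here. In all, 13 alternatives were planned and 4 added after seeing the data: leaving out barcodes of 5 or more B-cell UMIs, leaving out Ighd barcodes, and either taking B cells by IGHV11-2 or IGHV12-3 or leaving these out.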

Additional observations from a re-analysis of the deposited data

Results flagged for a closer look

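Fdps, the farnesyl diphosphate synthase, differed in opposite directions between 2 cell classes. Its log2 ratio of HFD over CD was 0.21 in macrophages and -0.43 in B cells without Fcer2a or Cr2, a difference of 0.64 (0.37 to 0.90, counting error only). It was the 1 case of 54 differences computed between classes in which the intervals of the 2 ratios lay on opposite sides of 0. Of the 48 differences of single genes, 9 had intervals that leave out 0. With 1 library per diet the difference in Fdps was not tested. In barcodes of 5000 to 10000 UMIs the ratio was -0.44 in macrophages and -0.17 in B cells without Fcer2a or Cr2, so the opposite directions were not seen in that range. In macrophages with fewer than 5 B-cell UMIs the ratio was 0.10 (-0.12 to 0.33), an interval that includes 0. In those with 5 or more it was 0.88 (0.39 to 1.37). With the profiles of the other classes subtracted, macrophages had 26.2 CPM in HFD and 21.6 CPM in CD.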

How the results depend on the processing

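Of 424 ratios of single genes under other settings, 403 stayed within the interval of the reported value and 18 moved outside it. The other 3 changed direction from a reported ratio whose interval leaves out 0. Some of the 403 could not move. Allowing a receptor contig left both B-cell classes unchanged, and higher marker minimums left that without Fcer2a or Cr2 unchanged. Changes of sign were not counted apart where the reported interval includes 0. Sqle in macrophages, for instance, went from 0.23 to as low as -0.79, and Idi1 in T cells from -0.24 to as high as 0.12. The 3 reversed ratios were Fdps in macrophages (-0.44, barcodes of 5000 to 10000 UMIs), Cyp51 in T cells (0.12, barcodes of 5 or more B-cell UMIs left out) and Fdft1 in B cells without Fcer2a or Cr2 (0.022, thinned to 3000 UMIs). The summed ratio moved to -0.23 in T cells where barcodes with a receptor contig were allowed, to -0.19 in B cells without Fcer2a or Cr2 in barcodes of 5000 to 10000 UMIs, and to -0.24 in B cells with Fcer2a or Cr2 without cycling barcodes. The cause was not tested in these 6 cases. The summed ratio ranged from -0.14 to -0.02 in macrophages, from -0.23 to 0.09 in T cells, from -0.39 to -0.19 in B cells without Fcer2a or Cr2 and from -0.24 to 0.07 in B cells with them. Genes of under 100 UMIs, such as Sqle, have wide intervals. No paired analysis was possible because each diet has 1 library, and for the same reason no replicate could be left out.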

Other observations

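Cell cycle genes were higher in HFD in 3 of the 4 classes. The 12 genes summed to 371 CPM in HFD macrophages and 155 CPM in CD macrophages, with 12 of 12 higher in HFD, against 43.4% of all genes. In T cells they summed to 327 CPM in HFD and 219 CPM in CD. Of those with at least 50 UMIs there, 10 of 10 were higher, against 45.6% of all genes. In B cells without Fcer2a or Cr2 they summed to 233 CPM in HFD and 154 CPM in CD, with 12 of 12 higher, against 47.6%. In B cells with Fcer2a or Cr2 they summed to 198 CPM in HFD and 209 CPM in CD. Of those with at least 50 UMIs there, 2 of 8 were higher in HFD, against 57.5%. In B cells without Fcer2a or Cr2 the 8 sterol genes were higher in cycling than in other barcodes, at 91.1 CPM against 74.7 CPM in HFD and 122 CPM against 95.6 CPM in CD. In that class the sterol genes were thus lower in HFD within cycling and within other barcodes. Cycling barcodes were 20.3% of it in HFD and 13.3% in CD, and after thinning to 3000 UMIs 5.73% in HFD and 5.24% in CD, with Clopper-Pearson intervals that overlap.

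Of the S100a8 and S100a9 UMIs in HFD B cells without Fcer2a or Cr2, 2558 of 2590 lay in 1 barcode.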
